A study of Homo sapiens with 2 samples.

Results

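Wnt pathway genes were examined in astrocyte progenitors made from the human embryonic stem cell line H7 at day 160 and day 220 of differentiation. The 10 genes were chosen by symbol: the secreted inhibitors SFRP1 and SFRP2, the ligand WNT5A, the receptors FZD3 and FZD8, the nuclear factors TCF7L1, TCF7L2 and LEF1, and the feedback genes AXIN2 and NKD1. All 10 were found among the 36601 genes of the count tables. Each day was a single-cell RNA library of its own, and both carried the same H7 background and the same agents, LIF, BMP4 and FGF1, given one after the other per the series' design text. The labels state that 3 differentiations were pooled into each library, and no label separates them. The protocol text of both libraries speaks of 160 days, and the second is taken as day 220 from its other labels. With 1 library per day no test was possible, so every interval below is a 95% interval for counting error only, and each difference is a difference between these 2 libraries.

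Wnt proteins bind Frizzled receptors together with LRP co-receptors. In the canonical branch this stops the destruction complex, which holds AXIN and APC proteins, from degrading β-catenin, and β-catenin then binds TCF and LEF factors on DNA. AXIN2 and NKD1 are induced by the pathway and restrain it, SFRP proteins bind Wnts outside the cell, and WNT5A is best known for signalling without β-catenin. In the developing brain the pathway is known for its part in progenitor growth, regional patterning and the timing of neuron and glia formation.

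The day 160 library held 9425 kept cells with a median of 10058 UMIs (counted RNA molecules), and the day 220 library 521 cells with a median of 46433. Levels are UMIs per 1000000 (CPM) summed over the kept cells, not divided by gene length, so they are compared between cells and days and not between genes. Of the labelled cell type's markers, 9 of 12 astrocyte genes reached 10 CPM at day 160 and 8 of 12 at day 220. GFAP had 549.5 CPM and 135 CPM, S100B had 171 CPM and 567 CPM, and SLC1A3 had 294 CPM and 325 CPM, while AQP4 had 5.06 CPM and 2.09 CPM and ALDH1L1 2.14 CPM and 0.31 CPM. All 12 radial glia markers reached 10 CPM in both libraries, with summed levels of 11890 and 12610 CPM. Genes of neuronal precursors summed to 3585 and 2364 CPM and genes of neurons to 2107 and 1167 CPM, so neuronal lineage RNA was present on both days. Cycling markers summed to 1159 and 289.8 CPM. The part of these shifts in the differences below was not tested, other than by reading each gene within classes of cells. Microglial and endothelial markers summed to under 2 CPM. The libraries shared 3 barcodes.

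Between the days the 3 nuclear factor genes and WNT5A were higher at day 220, the 2 SFRP genes and NKD1 were lower, and the 2 Frizzled genes and AXIN2 differed by less than 1.5-fold. Only 5 of the 10 genes reached 10 CPM in at least 1 library, the level set for counting a gene as 2-fold different. Of these, TCF7L1 and TCF7L2 were at least 2-fold higher and SFRP1 was at least 2-fold lower on log2 of CPM + 1. Over all 10160 counted genes, 23.0% were at least 2-fold higher and 5.05% at least 2-fold lower, and counts of 2 and 1 among 5 genes cannot be set apart from that background. The 5 counted genes had a median log2 ratio of -0.13 against 0.14 for all counted genes.

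The ratio of these libraries moved with intron length. Counted genes nearest to FZD8, which has no intron, had a median log2 ratio of -0.34, those nearest to AXIN2 with its 27859 intron bases 0.03, and those nearest to TCF7L1 with its 172565 bases 1.49. Each log2 ratio was therefore also centred on the median of the counted genes nearest in annotated intron length. After centring, 10.2% of all counted genes were at least 2-fold higher and 7.37% at least 2-fold lower. Of the 5 counted genes 0 were then higher and 1, SFRP1, was lower, and their median was 0.21 against 0 for all.

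**Figure D1:**
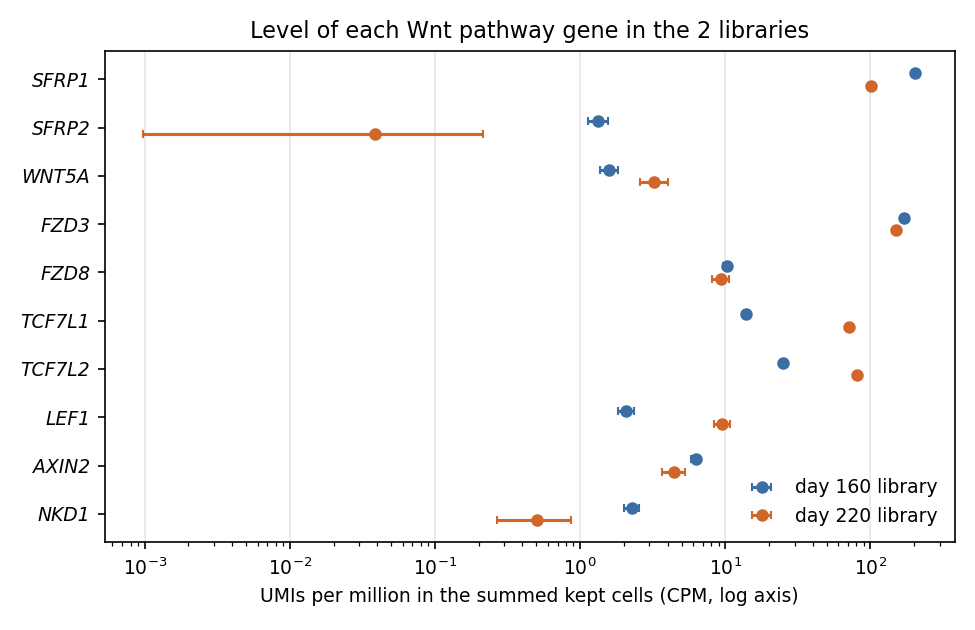
Level of each of the 10 genes in the summed kept cells of each library, in CPM on a log axis, with exact 95% Poisson intervals for counting error. TCF7L1, TCF7L2, LEF1 and WNT5A lie to the right at day 220, and SFRP1, SFRP2 and NKD1 to the left.

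Among the secreted inhibitors, SFRP1 (ENSG00000104332, chromosome 8, 41261958 to 41309497 of GRCh38) stood at 204 CPM (201.3 to 206.5) on day 160 and at 101 CPM (97.3 to 105) on day 220. Its level was 2.02-fold lower (1.94 to 2.10), close to the 2-fold limit, with a log2 ratio of -1.005, or -1.18 after centring. Without the cells of cycling clusters the log2 ratio was -0.98, short of the 2-fold limit. A gene on the same strand, AC104393.1, overlaps it. When every cell was thinned to 5000 UMIs, SFRP1 had a UMI in 51.3% (50.3 to 52.4) of the earlier and 28.3% (24.4 to 32.5) of the later cells. Unthinned, the shares were 67.6% and 65.8%. So the difference in share was seen at equal depth and was nearly absent when the deeper day 220 cells were read in full. No class of cells here is known to lack SFRP1, so the lowest cluster stands in as the background for a share. That was the day 160 cluster led by SST with 15.4% of thinned cells (median depth 6755 UMIs), and the day 220 cluster led by BRINP1 and SCGN with 10.8% (21070 UMIs). For the other genes at day 160, the lowest classes were neuronal lineage-like cells for SFRP2 (0.09%), FZD8 (0.50%), TCF7L1 (3.23%) and TCF7L2 (5.15%), glia-like cells for WNT5A (0.40%) and LEF1 (0.44%), and contractile-like cells for FZD3 (46.3%), AXIN2 (2.07%) and NKD1 (0 of 242).

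SFRP2 (ENSG00000145423, chromosome 4, 153780592 to 153789120) was close to 0 in both libraries. Its 154 UMIs gave 1.33 CPM (1.13 to 1.55) on day 160, and its 1 UMI gave 0.039 CPM (0.00098 to 0.216) on day 220. That is 34.3-fold lower (6.06 to 1362), a wide interval that rests on the 1 UMI. At day 160 the 154 UMIs lay in 79 cells, 7 of which held 5 or more and the highest of which held 13. Its thinned share was 0.40% (0.28 to 0.56) on day 160. No thinned day 220 cell of 491 held it, a count that permits at most 0.61%. The day 220 limit therefore lies above the day 160 share, and the absence of SFRP2 from thinned day 220 cells is not a detectable difference in share.

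The ligand gene WNT5A (ENSG00000114251, chromosome 3, 55465715 to 55490539) had 1.58 CPM (1.36 to 1.83) from 184 UMIs and 3.25 CPM (2.59 to 4.03) from 84 UMIs. It was 2.05-fold higher at day 220 (1.57 to 2.67), with log2 ratios of CPM + 1 of 0.72 as measured and 0.87 centred. Both levels are low, so the added 1 CPM shrinks its log2 ratio. The antisense gene WNT5A-AS1 overlaps it on the other strand, and the sources used here do not say whether counting used strand. Its thinned shares were 0.77% (0.59 to 0.97) and then 2.65% (1.42 to 4.49), with 1.82% and 10.2% when unthinned.

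Of the receptors, FZD3 (ENSG00000104290, chromosome 8, 28494205 to 28574268) had 170 CPM (168 to 172) and 151 CPM (146 to 156), 1.13-fold lower at day 220 (1.09 to 1.17). It was found in 55.8% (54.7 to 56.8) and 53.8% (49.2 to 58.3) of thinned cells, so its shares overlapped. Centred on genes with introns like its own 66277 bases, whose median log2 ratio was 0.56, its log2 ratio moved from -0.17 to -0.73. FZD8 (ENSG00000177283, chromosome 10, 35638249 to 35642278) has no annotated intron. It had 10.2 CPM (9.67 to 10.8) and 9.29 CPM (8.15 to 10.5), and the interval of the day 220 over day 160 ratio, 0.91 (0.79 to 1.04), includes 1. Its thinned shares of 3.94% (3.54 to 4.37) and 3.46% (2.03 to 5.49) overlapped as well. Its log2 ratio was -0.13 as measured and 0.21 after centring, so its sign depended on the centring.

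The nuclear factors, the DNA-binding partners of β-catenin, were higher at day 220 as measured. TCF7L1, often a repressor of Wnt targets (ENSG00000152284, chromosome 2, 85133410 to 85310388), had 13.8 CPM (13.2 to 14.5) and 70.7 CPM (67.5 to 74.0), 5.10-fold higher (4.77 to 5.46). TCF7L2 (ENSG00000148737, chromosome 10, 112950250 to 113167678) had 24.97 CPM (24.1 to 25.9) and 81.1 CPM (77.7 to 84.6), 3.25-fold higher (3.07 to 3.44). LEF1 (ENSG00000138795, chromosome 4, 108047545 to 108168956) had 2.08 CPM (1.83 to 2.36) and 9.52 CPM (8.37 to 10.8), 4.57-fold higher (3.81 to 5.48). At equal depth the direction was the same for all 3. TCF7L1 had a UMI in 5.93% (5.44 to 6.45) and 29.9% (25.9 to 34.2) of thinned cells, TCF7L2 in 10.2% (9.55 to 10.8) and 26.3% (22.4 to 30.4), and LEF1 in 1.02% (0.82 to 1.25) and 3.26% (1.87 to 5.24).

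These 3 genes carry 172565, 210693 and 116051 intron bases. Their log2 ratios of 2.27, 1.66 and 1.77 became 0.78, 0.23 and 0.78 after centring. On log2 of CPM + 1, each was therefore under 2-fold higher than counted genes of like length. LEF1 stayed under 10 CPM, so the added 1 CPM shrinks its log2 ratio, which was 2.14 before centring with 0.1 added instead. Whether LEF1 stays under 2-fold after centring with 0.1 added was not worked out. TCF7L1-IT1 on the same strand, AL158212.2 opposite TCF7L2 and LEF1-AS1 opposite LEF1 overlap these 3 genes, and reads of such partners may have been counted in them.

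**Figure D2:**
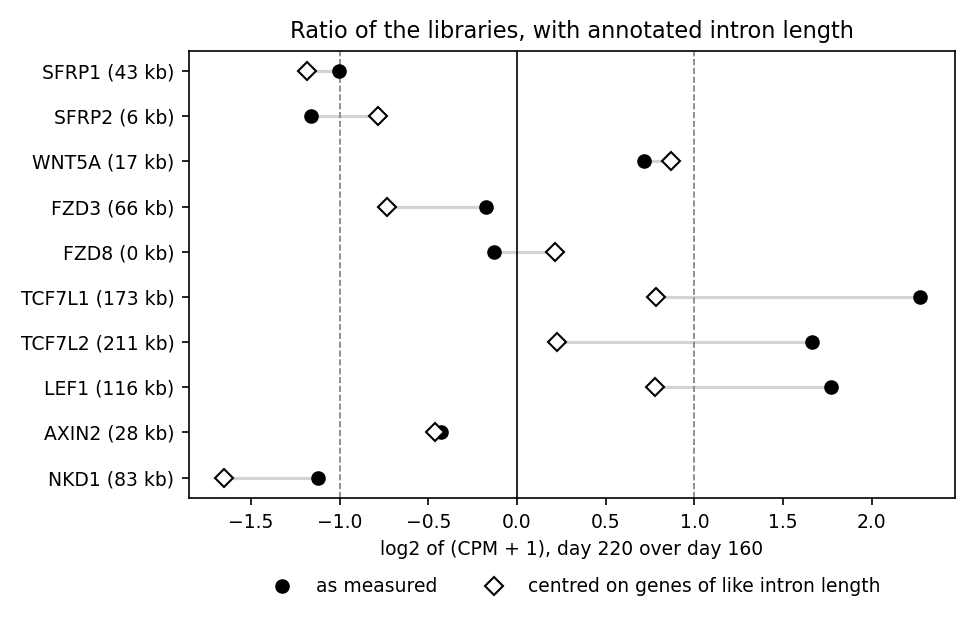
Log2 of (CPM + 1) at day 220 over day 160 for the 10 genes, as measured (filled circles) and centred on the counted genes nearest in intron length (open diamonds), with intron length in kb beside each name and dashed lines at 2-fold. Centring moved TCF7L1 from 2.27 to 0.78 and TCF7L2 from 1.66 to 0.23, and left AXIN2 and WNT5A nearly in place.

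The promoter sequences of TCF7L1 and TCF7L2 are shown because these 2 counted genes were higher together. RefSeq start sites (GRCh38.p14) gave 9 windows for 6 of the 10 genes, each read over the 250 bases before the start. The core of the TCF and LEF motif, CTTTG, was searched on both strands, and so were its longer forms CTTTGAT and CTTTGAA, each of which contains it. Capitals below mark CTTTG or its reverse complement. The first window is chr2:85133142-85133391 on the plus strand (TCF7L1), the second chr10:112949997-112950246 on the plus strand (TCF7L2 at its upstream start), and the third chr10:113126383-113126632 on the plus strand (TCF7L2 at the first of its 2 starts inside the gene).
TCF7L1: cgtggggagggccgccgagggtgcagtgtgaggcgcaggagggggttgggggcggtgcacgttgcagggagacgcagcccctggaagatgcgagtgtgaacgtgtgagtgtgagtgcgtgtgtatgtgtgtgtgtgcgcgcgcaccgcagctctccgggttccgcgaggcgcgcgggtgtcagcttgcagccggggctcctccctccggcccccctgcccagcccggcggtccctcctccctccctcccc
TCF7L2 upstream start: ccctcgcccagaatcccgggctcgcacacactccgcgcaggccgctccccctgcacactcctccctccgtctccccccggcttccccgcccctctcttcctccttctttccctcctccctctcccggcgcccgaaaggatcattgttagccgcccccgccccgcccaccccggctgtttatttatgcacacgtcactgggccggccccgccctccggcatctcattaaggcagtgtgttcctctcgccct
TCF7L2 first internal start: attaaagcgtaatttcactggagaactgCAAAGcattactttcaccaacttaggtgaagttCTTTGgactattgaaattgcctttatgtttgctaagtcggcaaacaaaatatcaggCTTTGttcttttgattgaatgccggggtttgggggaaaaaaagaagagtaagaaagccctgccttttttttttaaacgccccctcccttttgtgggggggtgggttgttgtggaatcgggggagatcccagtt
CTTTG or its complement was found 0 times in each of the first 2 windows and 3 times in the third, and 42.1% of all 35116 windows of this length held it at least once. Either longer form was in 5.94% of all windows and in 0 of the 9 windows of these genes. The windows at the outer starts were 72.0% and 68.0% G and C, above the 58.0% median of all windows, and the internal one shown 42.4%. The other internal window of TCF7L2, chr10:113129021-113129270, held CTTTG or its complement 1 time, was 48.4% G and C and is not shown because it overlaps an exon.

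The feedback genes were scarce. AXIN2 (ENSG00000168646, chromosome 17, 65528563 to 65561647) had 6.27 CPM (5.82 to 6.74) from 728 UMIs and 4.41 CPM (3.64 to 5.30) from 114 UMIs, 1.42-fold lower (1.16 to 1.75). Its thinned shares were 2.94% (2.60 to 3.32) and 1.63% (0.71 to 3.19), which overlap, and 7.10% and 17.5% without thinning. NKD1 (ENSG00000140807, chromosome 16, 50548330 to 50649249) had 2.27 CPM (2.01 to 2.57) from 264 UMIs and 0.50 CPM (0.27 to 0.86) from 13 UMIs, 4.52-fold lower (2.60 to 8.60). Its log2 ratio was -1.12, or -1.65 after centring on its 83495 intron bases. Thinned cells with NKD1 made up 1.18% (0.96 to 1.43) of the day 160 library and 0 of 491 in the other, where at most 0.61% is permitted. Of the members outside the nuclear factors, FZD3 and NKD1, with 66277 and 83495 intron bases, were both lower at day 220 as measured. What part intron length had in these ratios was not tested. AC007608.1 and AC007608.2 lie opposite NKD1.

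Each library was clustered without the Wnt genes, so that these genes did not shape the clusters they are read in. Day 160 gave 12 clusters and day 220 gave 7. Clusters with at least 3 listed markers 2-fold over the rest were pooled into broad classes. Glia-like cells, from clusters with astrocyte or radial glia markers, numbered 2513 and 160. Neuronal lineage-like cells, with precursor or neuron markers, numbered 3773 and 203, cycling-like cells 1884 and 33, and contractile-like cells, with mesenchymal markers, 259 and 50. A DHRS3-led cluster of 996 cells at day 160 and an OLIG1-led cluster of 75 at day 220 stayed unnamed. Median depths per cell ran from 6776 UMIs in neuronal lineage-like to 32982 in contractile-like cells at day 160, and from 34084 to 84487 at day 220.

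**Figure D3:**
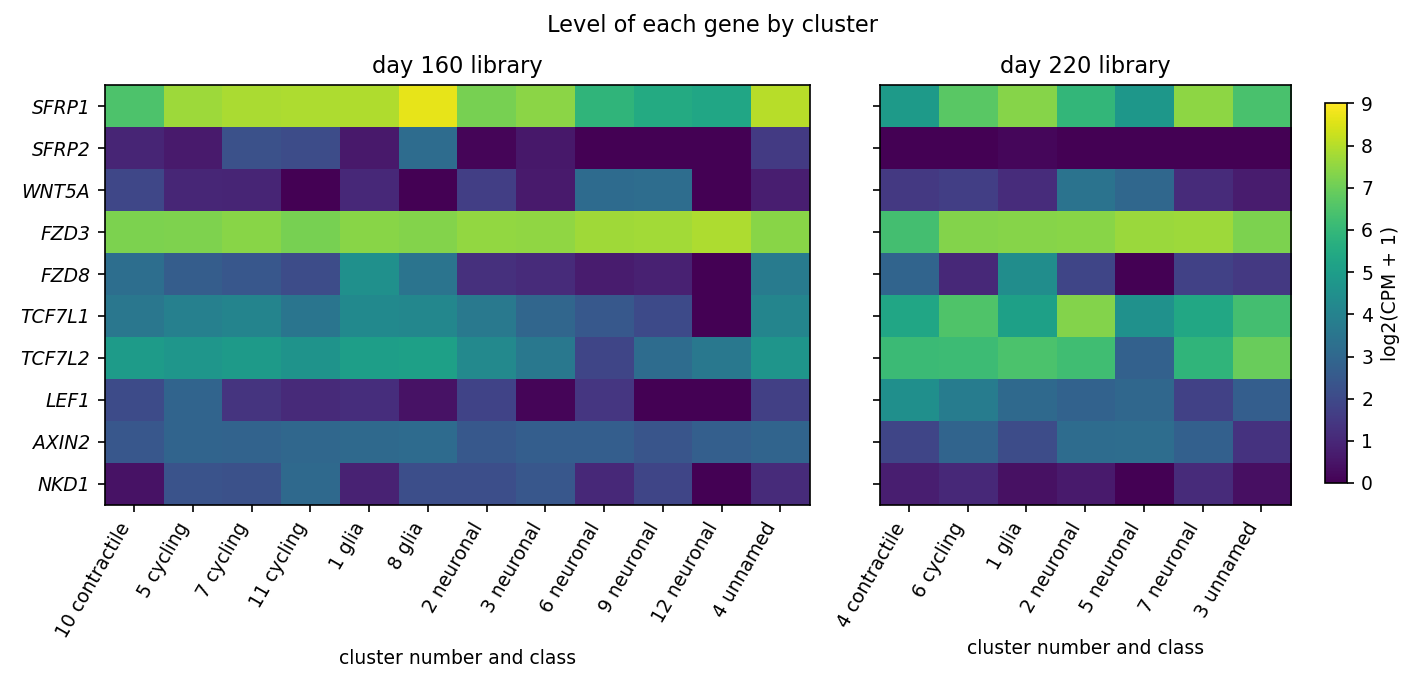
Level of each of the 10 genes in every cluster of each library, as log2 of (CPM + 1), with clusters numbered by size and ordered by class. FZD3 is even across the day 160 clusters and lowest in the contractile-like cluster at day 220, FZD8 is highest in cluster 1 of both libraries, and TCF7L1 is highest in cluster 2 of the day 220 library.

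FZD3 was the evenest of the genes that reached 10 CPM at day 160. Its log2 level had an SD of 0.22 over the 12 day 160 clusters, against 1.40 for FZD8, 1.23 for TCF7L1, 1.09 for SFRP1 and 0.97 for TCF7L2. Each cluster weighs the same in this SD, and cluster 12, with 26 cells, had 0 UMIs (0 to 20.4 CPM) of FZD8 and of TCF7L1. The part of counting error in these SDs was not tested. For FZD3 the day 160 clusters ran from 141 CPM (128 to 156) to 238 CPM (172 to 321), the latter in 26 cells led by SSTR2 and EOMES. At day 220 the range was from 78.6 CPM (70.6 to 87.3) in the contractile-like cluster to 203 CPM (174 to 235), and the contractile-like cluster was apart from the other 6. In glia-like cells FZD3 did not differ between days beyond counting error, at 167 CPM (163 to 172) and 166 CPM (157 to 174), a ratio of 0.99 (0.93 to 1.05). It was 1.91-fold lower (1.70 to 2.15) at day 220 in contractile-like cells.

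By class, FZD8 was highest in glia-like cells on both days, and at day 160 in cluster 1 of that class. These cells held 20.3 CPM (18.9 to 21.7) of it on day 160 and 20.4 CPM (17.6 to 23.5) on day 220, a ratio of 1.01 (0.85 to 1.18). Neuronal lineage-like cells had 1.12 CPM (0.77 to 1.58) and 2.29 CPM (1.31 to 3.72). The HLA class II-rich cluster 1 of day 160 held 62.7% of all FZD8 UMIs with 22.1% of the cells, and the SPARCL1-led cluster 1 of day 220 held 77.9% with 30.7%. At 5000 UMIs, 9.69% of glia-like cells (8.55 to 10.9) had FZD8 at day 160 and 10.3% (5.87 to 16.4) at day 220. In neuronal lineage-like cells these were 0.50% (0.28 to 0.80) and 0 of 193, which allows up to 1.55%. Without thinning the glial shares were 24.99% and 53.8%, and the neuronal ones 0.85% and 4.93%. Within the day 160 glia-like class, thinned shares were 10.7% (9.40 to 12.1) in cluster 1 and 4.73% (2.91 to 7.21) in the RAMP1 and GPC3 cluster. The latter was like the unnamed DHRS3-led cluster, with 4.69% (3.43 to 6.25).

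WNT5A was highest in neuronal lineage clusters on both days. At day 160 it had 8.40 CPM (5.27 to 12.7) in the SST-led cluster and 7.92 CPM (5.60 to 10.9) in the cluster led by SCGN and CALB2, and these overlap. Cluster 1 of the same library had 1.03 CPM (0.72 to 1.44). At day 220 the cluster led by PEG10 and NPY had 9.87 CPM (7.37 to 12.9) and held 61.9% of all WNT5A UMIs with 27.1% of the cells. Over the neuronal lineage class WNT5A was 2.71-fold higher (1.91 to 3.81) at day 220, and in glia-like cells the interval of its ratio (0.62 to 2.72) includes 1. The like-named PEG10 and NPY cluster of day 160 had 2.14 CPM (1.36 to 3.22), so within that pair of clusters WNT5A was 4.602-fold higher (2.77 to 7.88). The 2 clusters were paired by leading genes alone, and whether they hold the same kind of cell was not tested. WNT5A stayed under 10 CPM there, and of the 9842 genes of that pair that did not, 25.5% were at least 2-fold higher and 4.43% lower. The change in neuronal marker sums given above moves with the class, and its part was not tested.

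SFRP1 was low at day 160 in the clusters where WNT5A was high. It was lowest in the neuronal clusters 12, 9 and 6, at 38.7, 44.7 (37.0 to 53.6) and 58.5 CPM (51.9 to 65.8). Clusters 9 and 6 were the highest for WNT5A, while cluster 12, with 26 cells, had 0 WNT5A UMIs (0 to 20.4 CPM). SFRP1 was highest in the RAMP1 and GPC3 cluster, a small glia-like group of 432 cells, at 406 CPM (389 to 423). The DHRS3-led cluster was next at 258 CPM (249.1 to 268). Of the thinned day 160 cells with SFRP1, 0.45% (0.27 to 0.69) also had WNT5A, against 1.11% (0.81 to 1.47) of those without. At day 220 these shares were 4.32% (1.60 to 9.16) and 1.99% (0.80 to 4.05), the other way round and overlapping. The highest day 220 levels of SFRP1 were 177 CPM (150 to 208) in a neuronal lineage-like cluster of 22 cells, 157 CPM without its highest cell, and 165 CPM (157 to 174) in the SPARCL1-led cluster, and these overlap. SFRP1 was lower at day 220 in each of the 4 classes. The fold was 1.60 (1.52 to 1.69) in glia-like, 1.83 (1.67 to 2.02) in neuronal lineage-like, 2.14 (1.85 to 2.49) in cycling-like and 3.08 (2.56 to 3.73) in contractile-like cells. Counted genes at least 2-fold lower made up 5.35%, 4.11%, 2.68% and 5.09% in these classes, in the same order. The glia-like class included the RAMP1 and GPC3 cluster at day 160 and was the SPARCL1-led cluster alone at day 220. Its makeup therefore differed, and the part of this in the SFRP1 fold was not tested.

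The scarcer SFRP2 shared its highest cluster with SFRP1. The RAMP1 and GPC3 cluster had 8.13 CPM (5.93 to 10.9) and 29.2% of all SFRP2 UMIs with 4.58% of the cells. Only 19 of its 432 cells held a UMI, and without the highest of them the level was 6.55 CPM. The CDC20-led cycling cluster 7 was next with 3.64 CPM (2.56 to 5.02). In neuronal lineage-like cells SFRP2 had 6 UMIs in all at day 160 and 0 at day 220.

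The order of classes by TCF7L1 level differed between the libraries. At day 160 it was higher in glia-like cells, at 18.1 CPM (16.8 to 19.5), than in neuronal lineage-like cells, at 7.78 CPM (6.79 to 8.87). At day 220 the order was the opposite, with 33.8 CPM (30.2 to 37.8) in glia-like and 130 CPM (122 to 139) in neuronal lineage-like cells. The day 220 over day 160 fold was 1.87 (1.63 to 2.14) in glia-like and 16.7 (14.4 to 19.4) in neuronal lineage-like cells, where 22.5% and 26.6% of counted genes were at least 2-fold higher. In cycling-like cells it was 6.36-fold higher (5.27 to 7.65), where 25.0% of counted genes were. Centred within each class, the log2 ratios were -0.53 in glia-like, 2.38 in neuronal lineage-like and 1.03 in cycling-like cells. The neuronal lineage class was held mainly by clusters 2, 3 and 6 at day 160 and by cluster 2 at day 220, so its makeup differed. Within the pair of clusters led by PEG10 and NPY, which are cluster 2 of each library, TCF7L1 had 11.5 CPM (9.53 to 13.7) and 162 CPM (151 to 173), 14.1-fold higher (11.7 to 17.2), with a centred log2 ratio of 2.19. The pairing rests on leading genes alone, and whether the 2 clusters hold the same kind of cell was not tested. Neuronal precursor markers summed to 8280 CPM in the day 160 cluster and to 3246 CPM in the day 220 cluster. TCF7L1 was found in 57.5% of the thinned cells of that day 220 cluster, against 4.96% of the day 160 cluster paired with it. The share was 8.11% in the BRINP1 and SCGN cluster of day 220. Without the highest cell of the PEG10 and NPY cluster, which held 33 UMIs, the day 220 level was 157 CPM.

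TCF7L2 was lowest in a cluster with SCGN and CALB2 among its leading genes on both days. The SCGN and CALB2 cluster of day 160 had 2.71 CPM (1.44 to 4.63) and the BRINP1 and SCGN cluster of day 220 had 5.92 CPM (1.92 to 13.8). The highest levels were 33.6 CPM (28.9 to 38.8) in the RAMP1 and GPC3 cluster and 31.9 CPM (30.02 to 33.9) in cluster 1 at day 160, which overlap, and 121 CPM (109 to 133) in the OLIG1-led cluster at day 220. It was 2.72-fold higher (2.48 to 2.97) at day 220 in glia-like and 5.39-fold higher (4.67 to 6.22) in neuronal lineage-like cells. The centred values were 0.03 and 0.61.

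LEF1 was highest in 1 cycling cluster at day 160 and in contractile-like and cycling-like cells at day 220. Cluster 5 of day 160, led by PCLAF and RRM2, had 6.44 CPM (5.11 to 8.002) and 33.5% of all LEF1 UMIs with 10.3% of the cells, while the other cycling clusters had 1.58 CPM (0.90 to 2.56) and 1.10 CPM (0.23 to 3.22). The CRABP1-led cluster 3 had 1 UMI. At day 220 the contractile-like cluster had 21.4 CPM (17.4 to 26.2) and the cycling-like cluster 12.9 CPM (8.24 to 19.1). A cell of the contractile-like cluster held 30 of its 96 UMIs, and without that cell the level was 15.2 CPM, within the interval of the cycling-like cluster. In contractile-like cells LEF1 was 6.87-fold higher (4.62 to 10.4) at day 220, with a centred log2 ratio of 1.62, and 19.3% of counted genes were at least 2-fold higher there. In glia-like cells it was 6.499-fold higher (4.40 to 9.69) with a centred ratio of 1.07, from 45 and 68 UMIs. In cycling-like cells the fold was 3.28 (2.01 to 5.16) and in neuronal lineage-like cells 4.54 (2.82 to 7.33). On log2 of CPM + 1, both were under 2-fold after centring, at 0.44 and 0.47. In neuronal lineage-like cells LEF1 had 1.26 and 5.73 CPM, where the added 1 CPM shrinks the log2 ratio. Whether that ratio stays under 2-fold without the shrinkage was not worked out.

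AXIN2, a widely induced target gene of canonical signalling, was highest in glia-like cells at day 160 and not at day 220. At day 160 glia-like cells had 7.53 CPM (6.70 to 8.44), apart from neuronal lineage-like cells with 4.98 CPM (4.19 to 5.87) and contractile-like cells with 4.46 CPM (3.31 to 5.88). Cycling-like cells, with 6.44 CPM (5.49 to 7.51), overlapped the glia-like cells. Among the large clusters, cluster 1 had 7.49 CPM (6.60 to 8.48) from 254 UMIs and the PEG10 and NPY cluster 4.57 CPM (3.38 to 6.04) from 49 UMIs. At day 220 the PEG10 and NPY cluster had 8.16 CPM (5.90 to 10.99) from 43 UMIs, apart from the SPARCL1-led cluster with 3.27 CPM (2.21 to 4.67) from 30 UMIs and the OLIG1-led cluster with 1.497 CPM (0.49 to 3.49) from 5 UMIs. In glia-like cells AXIN2 was 2.30-fold lower (1.58 to 3.47) at day 220. Its log2 ratio of CPM + 1 there was -0.998, short of the 2-fold limit, and it stayed under 10 CPM. Of the counted genes of that class, which leave AXIN2 out, 5.35% were at least 2-fold lower on that measure. In neuronal lineage-like cells AXIN2 was 1.58-fold higher (1.14 to 2.17). Its centred log2 ratios were -1.07 and 0.50. The other feedback gene, NKD1, was lower at day 220 in both, 3.57-fold (1.15 to 17.9) in glia-like and 5.75-fold (2.17 to 21.6) in neuronal lineage-like cells, on 3 and 4 UMIs at day 220. At day 160 NKD1 was highest in cycling cluster 11, with 7.34 CPM (4.48 to 11.3) from 20 UMIs. The CRABP1-led cluster was next with 4.41 CPM (3.22 to 5.90), and these overlap. Cluster 1 had 0.80 CPM (0.53 to 1.16). Among the classes of day 160, NKD1 was highest in cycling-like cells, whose interval overlapped that of neuronal lineage-like cells.

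**Figure D4:**
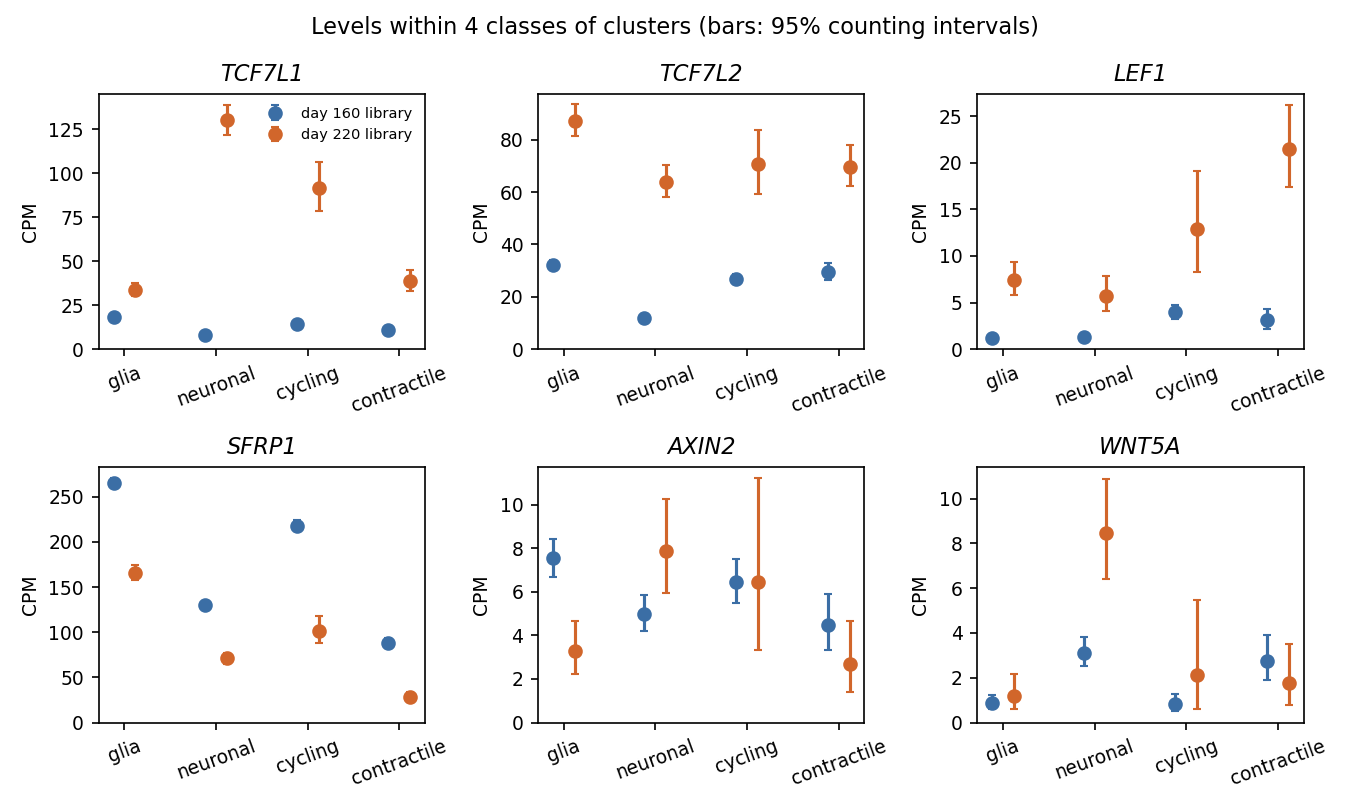
Levels of 6 genes in glia-like, neuronal lineage-like, cycling-like and contractile-like cells of each library, in CPM on linear axes from 0, with exact 95% Poisson intervals for counting error. TCF7L1 is at 130 CPM in neuronal lineage-like cells of day 220 against 7.78 CPM at day 160, and AXIN2 lies lower at day 220 in glia-like and higher in neuronal lineage-like cells.

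Few cells showed many of the 10 genes at equal depth. At 5000 UMIs, 17.0% of day 160 and 17.5% of day 220 cells had none of them, and the median was 1 gene in both. Of 8734 day 160 cells, 700 had 3 of the genes, 71 had 4 and 6 had 5, and of 491 day 220 cells 71 had 3 and 15 had 4. Among day 160 cells with TCF7L2, 6.75% (5.19 to 8.60) had FZD8, against 3.62% (3.22 to 4.06) of the others. Cells with AXIN2 had SFRP1 in 60.3% (54.0 to 66.3), against 51.0% (49.97 to 52.1) of the others. SFRP1 was likewise more frequent with TCF7L1 (61.8% against 50.7%), FZD8 (60.8% against 50.9%) and TCF7L2 (58.0% against 50.6%), so this was not particular to AXIN2. It was less frequent with WNT5A (29.9% against 51.5%), and for the other members the intervals overlapped. These cells share a library and clusters, and the values are given as a description.

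The genes most like a member in level over the 12 day 160 clusters were named for the 5 members of 10 CPM or more, as the 3 with the highest Pearson correlation of log2(CPM + 1). The points share a library, and the smallest cluster has 26 cells. For FZD8 they were DIPK1C (r = 0.985), GFAP (0.983) and RGS6 (0.979). For SFRP1 they were TEX9 (0.953), FAM181A (0.9503) and GTPBP6 (0.925). TCF7L1 was nearest to CNDP2 (0.984), ZFP36L1 (0.974) and PLAAT4 (0.971), TCF7L2 to STX17 (0.979), SOX21 (0.966) and GPC6 (0.965), and FZD3 to WDR47 (0.987), ZNF506 (0.975) and SVBP (0.974). Each is among the highest values over 8582 genes searched on 12 points.

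A list of 92 Wnt genes, the 10 included, places them in the pathway. Of these, 47 reached 10 CPM in a library and 6 had 0 UMIs in both. As measured, 17 of the 47 passed 2-fold upward and 4 downward, and the median log2 ratio was 0.47. After centring, 7 passed upward and 2 downward, and the median was -0.01. These counts stand beside the shares of all genes given above, 23.0% and 5.05% as measured, and 10.2% and 7.37% after centring. By role, 4 of 5 counted ligand genes were higher and 1 lower as measured, 5 of 12 receptors were higher and 2 lower, and 0 of 4 secreted modulators were higher and 1, SFRP1, lower. Of the 13 cytoplasmic transducers, which include the destruction complex, 2 were higher, of 10 nuclear effectors 4, and of 3 feedback and target genes 2, with 0 lower in these 3 roles. After centring, 1 ligand gene was higher and 1 lower, 3 receptors were higher and 0 lower, 1 secreted modulator was lower, and 1 gene in each of the other 3 roles was higher.

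Among the ligands, WNT11 had 0.34 CPM from 40 UMIs and 18.4 CPM from 475 UMIs, 53.4-fold higher (38.6 to 75.7) with a centred log2 ratio of 3.82. WNT7A was 3.63-fold lower (3.03 to 4.38) with a centred ratio of -2.01, and WLS, which carries Wnts to the cell surface, had the highest CPM of the ligand group and a centred ratio of -0.01. Of the receptors, LGR4, which binds R-spondins, was 23.5-fold higher (20.9 to 26.4) and 3.41 centred. ROR1, a receptor of WNT5A, was 36.6-fold higher (29.2 to 46.5) and 1.54 centred, and the co-receptor LRP6 was 2.92-fold higher (2.77 to 3.07) and 0.37 centred. TNFRSF19 and ZNRF3, both induced by the pathway, were 6.31-fold (5.95 to 6.69) and 3.01-fold (2.81 to 3.23) higher, with centred ratios of 1.85 and 0.10. BTRC, PYGO1 and GSK3B had log2 ratios of 2.43, 1.38 and 1.35, which became 1.005, 1.29 and -0.32. DKK3, CSNK1E and TLE1, named for the highest CPM of either library among the modulators, transducers and nuclear effectors, had log2 ratios of -0.34, -0.77 and -0.21. CSNK1E had the highest CPM of the transducers at day 160 only, with 257 CPM, and had 151 CPM at day 220.

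**Figure D5:**
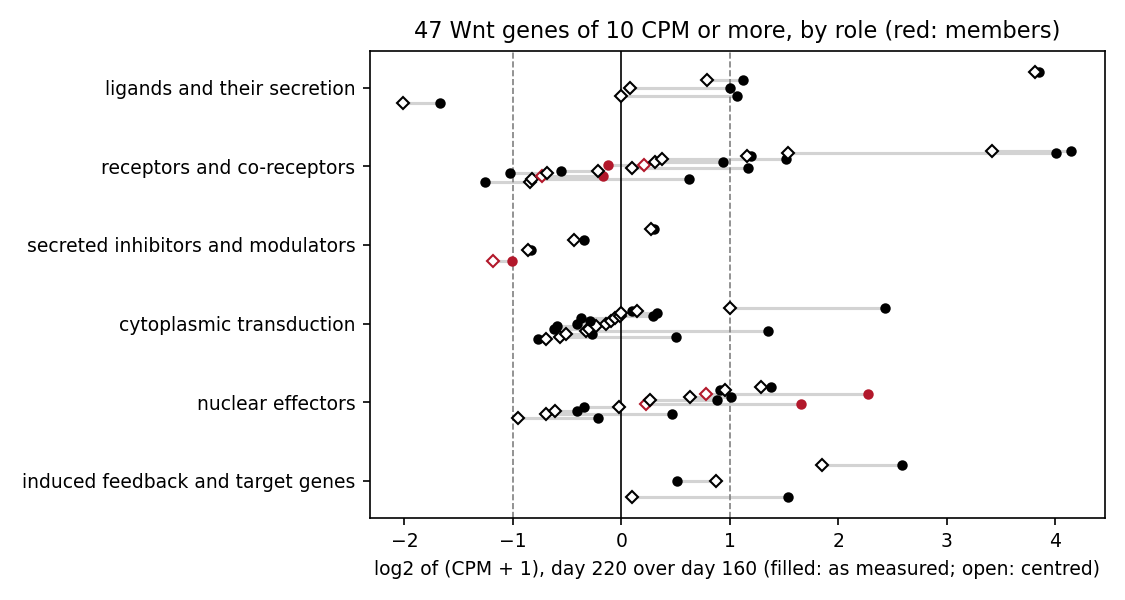
Log2 of (CPM + 1) at day 220 over day 160 for the 47 Wnt genes of 10 CPM or more, by role, as measured (filled) and centred on intron length (open), with the counted members in red and dashed lines at 2-fold. The 7 genes that stayed at or above 2-fold after centring lie among the ligands, receptors, transducers, nuclear effectors and target genes, and none is a member.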

How the data were processed

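Both libraries were deposited as tables of UMI counts, not normalized, with 1 value for each gene and barcode. Their headers name Cell Ranger 7.0.1. The build hg38, Cell Ranger 7 and Seurat 4 are named in the submitters' processing notes. The sources used here do not say whether introns and strand were used in counting, or how barcodes were filtered. Barcodes with 1000 or more genes and at most 15% mitochondrial UMIs were taken, 9972 of 13018 at day 160 and 524 of 676 at day 220. Scrublet doublets (scanpy 1.11.5, expected rate 0.06) were left out, 547 and 3. The kept cells held 116115986 and 25833964 UMIs. A gene with no UMI allows up to 3 counts, which is 0.0258 and 0.116 CPM.

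Intervals of CPM are exact Poisson, of ratios exact conditional binomial and of shares Clopper-Pearson, at 95%. The code for the ratios was checked on simulated counts with planted changes. Those counts held no shift with intron length and no change of cell makeup, so the check bears on the code only. Each log2 ratio was of CPM + 1, and was also centred on genes of like intron length. Gene positions came from GENCODE and promoters from RefSeq. Clustering used 2000 variable genes without the Wnt list, 30 components, 15 neighbours and Leiden resolution 0.5. For thinned shares, 691 and 30 cells under 5000 UMIs were left out. Named genes were the 10 members, the 12 largest ratios of the Wnt list among genes past 2-fold (members included), the gene with the highest CPM of either library in each role and the 3 most alike genes. The members, the Wnt list and the rule for naming genes were chosen with earlier results of these data known. The pooling of clusters into classes was chosen after the clusters were seen.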

Additional observations from a re-analysis of the deposited data

Results flagged for a closer look

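AXIN2 moved in opposite directions in 2 classes of cells: the day 220 over day 160 ratio was 1.58 in neuronal lineage-like cells and 0.434 in glia-like cells. The difference between the classes was not tested, since each class of each day comes from 1 library. FZD8 likewise had a ratio of 2.04 in neuronal lineage-like cells, from 32 and 16 UMIs, and 0.226 in cycling-like cells, from 121 and 2 UMIs, and that difference was not tested either.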

How the results depend on the processing

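No paired analysis was possible because each day had 1 library. The 10 members kept the sign of their log2 ratio under all 10 alternatives, except FZD3 in 9 and FZD8 in 8. AXIN2 ranged from -0.53 to -0.005, the latter with the mean of per-cell CPM, so its lower level was not seen there. The count of members at least 2-fold higher was 2, 0 centred on intron length, and 3 with CPM without mitochondrial and ribosomal protein genes, with genes of 1 CPM or more or with no filter. The count lower was 1, 0 with a pseudocount of 5 or outside the cycling clusters, and 3 with genes of 1 CPM or more or with no filter. SFRP1, the member behind that count, ranged from -1.18 to -0.98. The Wnt list had 17 higher, or 11 with a pseudocount of 5 and 7 centred. It had 4 lower, or 1 with a pseudocount of 5 and 2 centred. With genes of 1 CPM or more or with no filter, 21 were higher and 7 lower. Of these settings, the share of all genes past 2-fold was worked out only for the main and centred ones. The counts of members and of the list under the other settings therefore have no background beside them. Members whose thinned share was higher at day 220, intervals apart, numbered 4, or 7 without thinning. Those lower numbered 2, or 1 at 2000 UMIs and 0 without thinning. Such shares were not counted over all genes, so these counts have no background beside them. The difference in share of AXIN2 turned from negative to 0.31 percentage points at 2000 UMIs and 10.4 without thinning, that of FZD3 to 0.38 and 14.97, and that of FZD8 to 12.55 without thinning. The cluster with the highest level moved to other cells (0% shared) for TCF7L1, TCF7L2 and FZD3 at day 160, with Leiden resolution 1.0 or all variable genes used. At day 220 it did so for SFRP1 and FZD3 under all 3 clusterings, 0.3 included. It kept most of its cells for FZD8 and SFRP1 at day 160 and for TCF7L1 and TCF7L2 at day 220. The cause was not tested, other than that thinning lowers shares by design. SFRP2 and NKD1 had only 1 and 13 UMIs at day 220, so the intervals of their ratios are wide.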
